A study of Rattus with 18 samples.

Results

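The CXC and CX3C chemokines described here are 10 genes, the ligands Cxcl1, Cxcl2, Cxcl9, Cxcl10, Cxcl11, Cxcl12, Cxcl13, Cxcl16 and Cx3cl1 with the receptor Cx3cr1. They were chosen by name, as rows of the scanner files for non-control probes whose gene name, older or current, is one of the 10. A probe was found for 9 of the 10 by this rule, and Cxcl16 is not analysed here. All 9 passed the filter on dim probes, among 23177 genes and transcripts tested. RNA came from glomeruli, the filtering units of the kidney, of rats (strain label SD, 200 g) and was hybridised to 18 one-colour arrays, 3 for each of 6 days. Day 0 is a control group injected with saline. Days 1, 2, 3, 4 and 5 count from the injection of anti-Thy1 antibody, which binds a protein on the surface of mesangial cells in the rat. Per the labels each time point used 3 glomeruli from each of 6 rats. The rats behind each array are not named in the labels. The p-values therefore rest on the spread between the 3 arrays of a day, and that spread may be technical.

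Chemokines are small secreted proteins that draw leukocytes along a gradient by binding G protein-coupled receptors. CXC ligands that carry the motif glutamate-leucine-arginine, such as Cxcl1 and Cxcl2, bind Cxcr2 and attract neutrophils. Cxcl9, Cxcl10 and Cxcl11 are induced by interferon and bind Cxcr3 on activated T cells and NK cells. Cxcl12 and Cxcl13 are often called homeostatic: Cxcl12 retains stem cells and guides vessels through Cxcr4, and Cxcl13 draws B cells into follicles through Cxcr5. Cx3cl1, or fractalkine, is made as a membrane protein that can be shed, and it binds Cx3cr1 on monocytes, macrophages and NK cells. In anti-Thy1 nephritis the antibody binds mesangial cells, complement lyses many of them, leukocytes enter, and the surviving cells then divide and lay down matrix.

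Of the 9 genes, 6 have their probes on chromosome 14 of the build that the file headers name, rn4. The probes of Cxcl11, Cxcl10 and Cxcl9 follow each other there, with 15.7 kb between the probes of Cxcl11 and Cxcl10 and 20.8 kb between those of Cxcl10 and Cxcl9. The probes of Cxcl2 and Cxcl1 are 13.2 kb apart. The probe of Cxcl13 lies 2126 kb before that of Cxcl11. Cxcl12 is read by 2 probes on chromosome 4, Cx3cl1 by 2 probes on chromosome 19, and Cx3cr1 by 1 probe on chromosome 8. The probe sequences were compared with each other. They were not compared with whole transcripts, so this cannot show that a probe reads only its own gene. The longest run of bases that any probe of the 9 genes shares with a probe of another CXC or CX3C gene on the array was between 7 and 9 of 60 bases. The probes of Cxcl9 and Cxcl11 are shown because these neighbours, which share a receptor, differed in their course. Cxcl9 is read at chr14:17288831-17288890 and Cxcl11 at chr14:17252192-17252251, both on the + strand of rn4, and capitals mark the longest run shared with another such probe, that of Ppbp for Cxcl9 and that of Pf4 for Cxcl11.
Cxcl9: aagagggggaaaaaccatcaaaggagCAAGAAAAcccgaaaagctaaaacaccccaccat
Cxcl11: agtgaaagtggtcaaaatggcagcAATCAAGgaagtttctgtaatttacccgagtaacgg

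Values are levels on a log2 scale relative to the 75th percentile of each array, so that 0 is that percentile, and levels of different genes are not compared. An array is called by its day and the replicate number of its title, and values follow the order of those numbers. Each array had from 22637 to 28520 probes well above background, and precision is limited by how many arrays there are. The 75th percentile lay between 180.7 and 229.2 intensity units on the controls and between 251.9 and 452.4 on the other arrays. Of the 9 genes, 7 were well above background on all 18 arrays, Cx3cr1 on 14 and Cxcl2 on 13. All 7 podocyte markers listed were well above background on all arrays of every day. For 7 markers of proximal tubule, another part of the kidney, the summed level ranged from 265 to 374 on the controls, 428 to 515 on day 1 and 263 to 572 on the later days. Of the 7, 1 rose on day 4 (Kap), against 25.6% of all genes, and none passed the test on the other days. Their part in any change was not tested. Thy1, the antibody's target, fell by 3.25 on the log2 scale (SE 0.59, adjusted p = 0.0026) on day 1, where replicate 4 was not well above background. The 3 controls share slide 1 with day 1 replicate 1, and no array of days 2 to 5 lies on it. For days 3 and 5, slide and the change from day 0 can be told apart only by way of day 1 replicate 1. The scan day of days 2 and 4 was not that of the other arrays, so that for these 2 days it and the change from day 0 cannot be told apart. With the array median in place of the 75th percentile, the median change of all genes from day 0 lay between 0.37 and 0.49, and with 12 reference genes between -0.69 and -0.40, against -0.02 to 0.06 here. The share of higher genes among all genes called was 45.3% to 48.9%, but 70.0% to 75.8% and 6.16% to 16.1% under those 2 scalings.

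On day 1, 4 of the 9 chemokine genes rose and 2 fell, against 19.2% and 20.7% of all genes tested. The genes that rose were Cxcl1, Cxcl2, Cxcl10 and Cx3cl1, and those that fell were Cxcl12 and Cxcl13. On day 2 the same 4 rose and none fell at an adjusted p under 0.05 in limma, against 20.8% higher and 25.1% lower among all genes. On day 3 Cxcl1, Cxcl2, Cxcl9 and Cxcl10 rose, and on day 4 Cxcl1, Cxcl2, Cxcl10 and Cxcl13 rose, with none lower on either day. The background was 21.8% higher and 26.0% lower on day 3, and 25.6% higher and 26.7% lower on day 4. On day 5, 3 of 9 rose, Cxcl1, Cxcl2 and Cxcl10, against 20.9% higher and 23.4% lower. At an unadjusted p under 0.05 in limma, 0 of the 9 were lower on days 2 to 5. On these days 5, 5, 4 and 4 were higher. Of all genes, 53.6%, 54.5%, 58.5% and 53.2% passed in either direction. Counted in either direction, the 9 genes were thus near or below that share. Cxcl1, Cxcl2 and Cxcl10 were called higher than the controls on all 5 days in this fit at the adjusted threshold. The moderated F-test over all days called 6 of the 9, against 53.1% of all genes: Cxcl1, Cxcl2, Cxcl9, Cxcl10, Cxcl12 and Cxcl13. Cxcl2, counted on each day and over all days, was well above background on no control. It passed the filter only through days 1, 3 and 4, where it was high. Its part in these counts is thus no independent support. The median change of the 9 from day 0 was 0.75, 1.17, 1.55, 0.54 and 1.14 on days 1 to 5, against 0.06, 0.05, -0.02, 0.05 and 0.06 for all genes. With slide as a fixed block, no member was called on days 1, 3 or 5, and 0, 1 and 1 of all 23177 genes were.

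**Figure D1:**
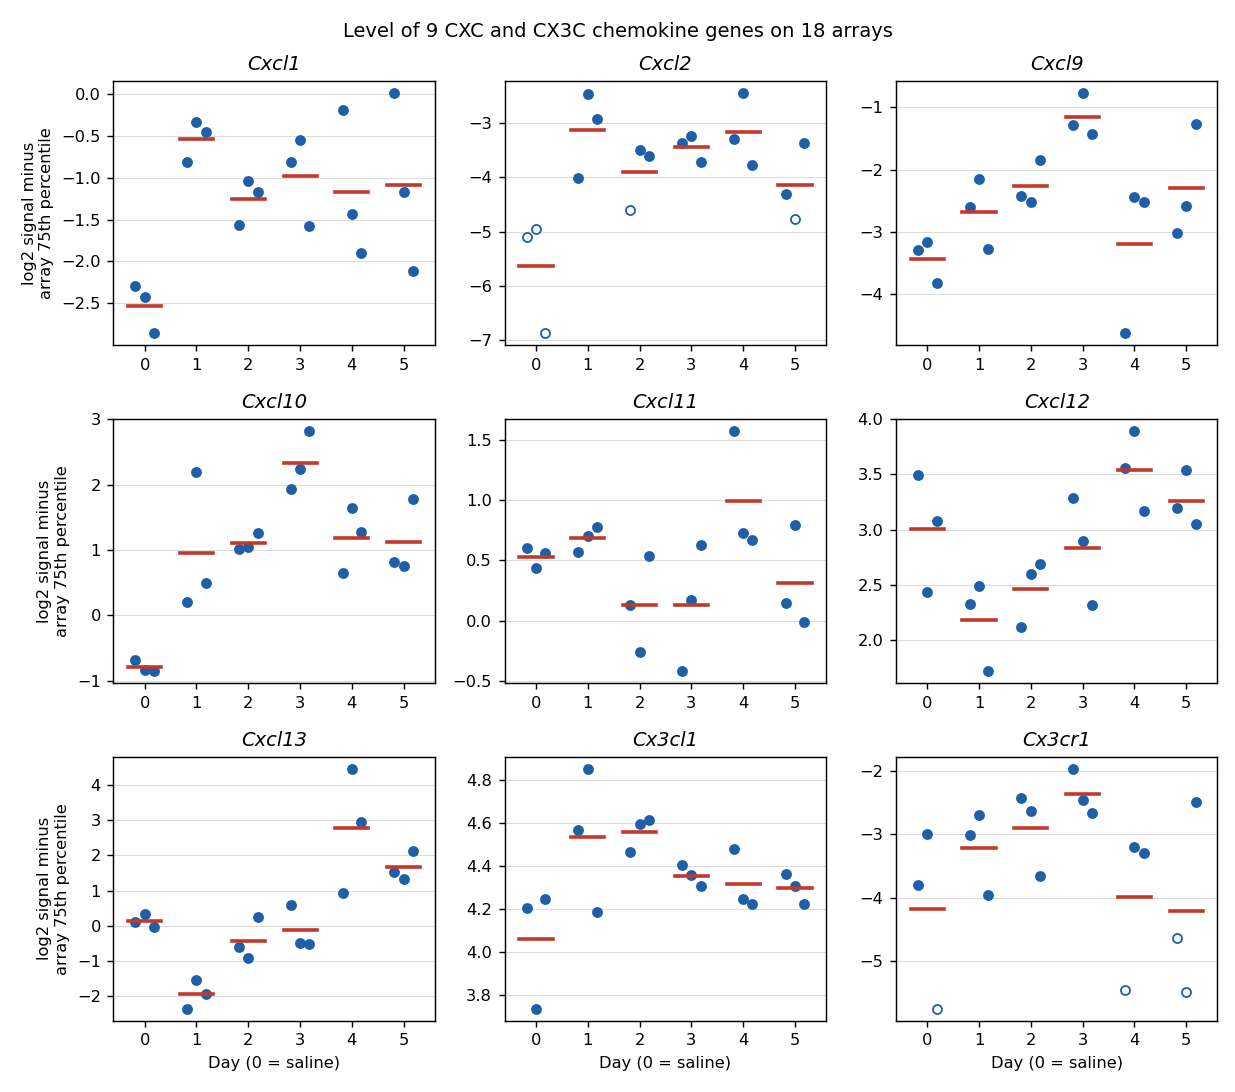
Level of each of the 9 chemokine genes, as log2 signal minus the array's 75th percentile (vertical axis, own scale per panel), by day (horizontal axis); points are the 3 arrays of a day, open where the probe was not well above background, and red bars are means. All arrays of days 1 to 5 lie above the controls for Cxcl1 and Cxcl10, the controls of Cxcl2 are all at background, and Cxcl13 is lowest on day 1 and highest on day 4.

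Cxcl1, a neutrophil attractant known in rats as CINC-1, was higher than in the controls on every later array. Its level was -2.30, -2.42 and -2.86 on the controls, -0.81, -0.34 and -0.46 on day 1 and -1.56, -1.04 and -1.18 on day 2. It was -0.81, -0.55 and -1.58 on day 3, -0.19, -1.43 and -1.90 on day 4, and 0.01, -1.17 and -2.11 on day 5. The lowest later array, day 5 replicate 5, was still above the highest control, and the spread within a day was wider on days 4 and 5 (SD 0.88 and 1.06) than on day 1 (SD 0.24). Cxcl1 rose 3.97-fold on day 1, a log2 change of 1.99 (SE 0.47, adjusted p = 0.0067). On days 2, 3, 4 and 5 the changes were 1.27, 1.55, 1.35 and 1.44 with the same SE, with adjusted p = 0.04, 0.015, 0.027 and 0.024. The order of the days by mean was 1, 3, 5, 4, 2 and 0, and among the later days each overlapped the next.

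The calls of Cxcl1 on days 2 to 5 were each lost in some of the fits that left out 1 array. The day 2 change was 1.38, 1.32 or 1.10 without control replicate 2, 4 or 5, and 1.16 or 1.22 without day 2 replicate 3 or 4, with adjusted p from 0.051 to 0.11. The day 3 change was 1.38 (adjusted p = 0.051) without control replicate 5 and 1.33 (adjusted p = 0.06) without day 3 replicate 3. The changes on days 4 and 5 were 1.40 and 1.49 without control replicate 4 (adjusted p = 0.059 and 0.06), and 1.19 and 1.27 without control replicate 5 (adjusted p = 0.082 and 0.071). They were 0.86 (adjusted p = 0.14) without day 4 replicate 1, and 0.89 (adjusted p = 0.12) without day 5 replicate 2. The day 1 call held in each fit that left out 1 array, and on slide 1 day 1 replicate 1 was 1.72 above the mean of the controls.

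Cxcl2, the rat counterpart of macrophage inflammatory protein 2, was not well above background on any control. Its level was -5.10, -4.95 and -6.88 there, and -4.01, -2.46 and -2.91 on day 1. On day 2 it was -4.60, -3.49 and -3.60, with replicate 2 not well above background, and on day 3 it was -3.36, -3.24 and -3.72. On day 4 it was -3.28, -2.44 and -3.76, and on day 5 it was -4.31, -4.77 and -3.36, with replicate 4 not well above background. The arrays of days 1, 3 and 4 were all above the controls, while day 2 replicate 2 and day 5 replicate 4, at background like the controls, have no order against them. With each control set to a floor, Cxcl2 was 2.84-fold higher on day 1, 2.29-fold on day 3 and 2.78-fold on day 4. No fold is given for days 2 and 5, where 2 of 3 arrays measured it. The floor is the lowest signal that was well above background on each control, and the mean of the brighter day was set against it. It is no strict limit of detection, so these folds are no firm bounds. On day 5 replicate 4, Cxcl2 at -4.77 was not well above background, while the lowest signal well above it there was -4.92. The fit called all 5 days, with adjusted p = 0.0045, 0.017, 0.0045, 0.0019 and 0.036. Cxcl2 passed the filter only through days 1, 3 and 4, where it was high, so these calls are no independent support.

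Control replicate 5 is the dimmest array for Cxcl2. Without it the fitted changes on days 1 to 5, which use no floor, went from 2.52, 1.75, 2.20, 2.48 and 1.50 to 1.90, 1.13, 1.59, 1.87 and 0.88. The adjusted p was then 0.084 on day 2 and 0.17 on day 5, and below 0.05 on the other days. The day 2 call was also lost without day 2 replicate 3 or 4 (1.55 and 1.60, adjusted p = 0.067 and 0.058), and the day 5 call without day 5 replicate 2 or 5 (1.58 and 1.11, adjusted p = 0.061 and 0.14). With normexp background correction the change of Cxcl2 was -0.29, -0.013 and -0.060 on days 2, 3 and 4. Cxcl1 and Cxcl2 lie next to each other, and across the 18 arrays their levels had a Pearson correlation of 0.63, a description over arrays that share days and slides.

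Of 5 neutrophil markers that were tested, 4 rose on day 1, 2 on day 2, 1 on days 3 and 4, and 4 on day 5. The background was 19.2%, 20.8%, 21.8%, 25.6% and 20.9% of all genes higher on days 1 to 5, and the counts of days 3 and 4 are near it. The summed level of 9 such markers, as multiples of the array's 75th percentile, ranged from 2.21 to 3.19 on the controls, 9.54 to 13.4 on day 1, 3.27 to 6.46 on day 2, 5.50 to 7.36 on day 3, 3.12 to 7.34 on day 4 and 5.23 to 10.8 on day 5. Only day 4 replicate 2 lay within the range of the controls. S100a9, a calcium-binding protein abundant in neutrophils, rose by 2.12 (SE 0.58, adjusted p = 0.012) on day 1 and by 2.59 (adjusted p = 0.0035) on day 5. Without control replicate 4 its day 1 change was 1.70 (adjusted p = 0.071). The granulocyte genes Csf3r, Elane and Mmp8 were not well above background on any of the 18 arrays. Their part, and that of neutrophils as a whole, in the levels of Cxcl1 and Cxcl2 was not tested. In bulk RNA, fewer or more cells of a type cannot be told apart from less or more RNA per cell.

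Cxcl10, also known as IP-10, was higher than in the controls on every later array and highest on day 3. Its level was -0.68, -0.85 and -0.85 on the controls, 0.20, 2.19 and 0.49 on day 1 and 1.01, 1.05 and 1.26 on day 2. It reached 1.94, 2.24 and 2.82 on day 3, and was 0.65, 1.64 and 1.28 on day 4 and 0.82, 0.75 and 1.79 on day 5. The controls were close together (SD 0.10), and day 1 was spread widely (SD 1.08), with replicate 4 far above the other 2.
Cxcl10 rose 8.74-fold on day 3, a log2 change of 3.13 (SE 0.43, adjusted p = 0.00049). On days 1, 2, 4 and 5 it rose by 1.75, 1.90, 1.98 and 1.91 (adjusted p = 0.0077, 0.0034, 0.0018 and 0.0035). Day 3 did not overlap day 4, the next by mean, but it overlapped day 1. Day 1 replicate 4, at 2.19, lay above day 3 replicate 2, at 1.94. In the order of days 4, 5, 2 and 1 each overlapped the next, and day 1 did not overlap the controls. Day 3 was 1.38 above day 1 (adjusted p = 0.2) and day 5 was 1.22 below day 3 (a change of -1.22, adjusted p = 0.25), and neither passed the test. Without day 1 replicate 4 the day 1 change was 1.14 (adjusted p = 0.034). On slide 1, day 1 replicate 1 was 0.99 above the mean of the controls, and with slide as a fixed block the change on day 3 was 1.74 (adjusted p = 0.18) and on day 5 was 0.04 (adjusted p = 0.98).

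Cxcl9, also known as Mig, rose on day 3 and did not pass the test on the other days. Its level was -3.30, -3.16 and -3.83 on the controls, -2.61, -2.15 and -3.27 on day 1 and -2.42, -2.52 and -1.84 on day 2. It was -1.28, -0.77 and -1.42 on day 3, -4.63, -2.44 and -2.52 on day 4, and -3.02, -2.59 and -1.26 on day 5. All 3 arrays of day 3 were above every array of days 0, 1, 2 and 4, and day 5 replicate 5 lay among them. The rise on day 3 was 4.83-fold, a log2 change of 2.27 (SE 0.53, adjusted p = 0.0035). The changes on days 1, 2, 4 and 5 were 0.75, 1.17, 0.23 and 1.14 (adjusted p = 0.27, 0.086, 0.73 and 0.094). On day 4, replicate 1 was the lowest of all 18 arrays. Without it the day 4 change was 0.95, and the unchanged values of days 2 and 5 passed the test (adjusted p = 0.027 and 0.032). Day 3 was 1.52 above day 1 (adjusted p = 0.24), and 1.69 above it within slide 2.

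Cxcl11, also known as I-TAC, did not pass the test on any day. Its level was 0.60, 0.43 and 0.56 on the controls, 0.57, 0.70 and 0.77 on day 1 and 0.12, -0.27 and 0.53 on day 2. It was -0.42, 0.17 and 0.63 on day 3, 1.57, 0.73 and 0.67 on day 4 and 0.14, 0.80 and -0.01 on day 5. The changes on days 1 to 5 were 0.15, -0.40, -0.41, 0.46 and -0.22 (SE 0.30, adjusted p from 0.21 to 0.7). All 3 arrays of day 4 were above the controls, and the other days overlapped them. Cxcl9 and Cxcl10 had their highest means on day 3, while the mean of Cxcl11 was lowest, at 0.13, on both days 2 and 3. The highest array of Cxcl11 was day 4 replicate 1, where Cxcl9 was lowest. Across the 18 arrays the Pearson correlation was 0.76 between Cxcl9 and Cxcl10, -0.61 between Cxcl9 and Cxcl11 and -0.22 between Cxcl10 and Cxcl11. These are descriptions over arrays that share days, slides and the scaling.

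Markers of T and NK cells and of macrophages had their most calls on days 2 and 3, and few or none on days 4 and 5, when Cxcl10 was still called. The summed level of 11 T and NK cell markers ranged from 2.59 to 4.67 on the controls, 5.10 to 13.8 on day 1, 7.30 to 13.2 on day 2, 7.28 to 19.9 on day 3, 2.75 to 7.45 on day 4 and 4.43 to 10.9 on day 5. Of 8 tested, 2 rose on day 1, 6 on day 2, 7 on day 3 and none on days 4 and 5. Of all genes, 19.2%, 20.8%, 21.8%, 25.6% and 20.9% were higher on days 1 to 5, near the count of day 1. Gzmb, the cytotoxic protease granzyme B, rose by 3.02 (SE 0.76, adjusted p = 0.0052) on day 3, and Klrd1, a receptor of NK cells, by 2.94 (adjusted p = 0.0036). The summed level of 11 macrophage and monocyte markers ranged from 30.1 to 54.4 on the controls, 155 to 214 on day 1, 140 to 234 on day 2, 293 to 357 on day 3, 34.3 to 164 on day 4 and 41.5 to 227 on day 5. Of 10 tested, 6 rose on day 1, 9 on days 2 and 3, 3 on day 4 and 1 on day 5. The count of day 4 is near the same background, and that of day 5 is below it. On day 4 the low array was replicate 1, at 34.3, the array lowest for Cxcl9, and on day 5 the high array was replicate 5, at 227, the array highest for Cxcl9 on that day. Among the defining markers, Cd163 of macrophages was well above background on no array and Ncr1 of NK cells on 2. The part of these cells in the chemokine levels was not tested.

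**Figure D2:**
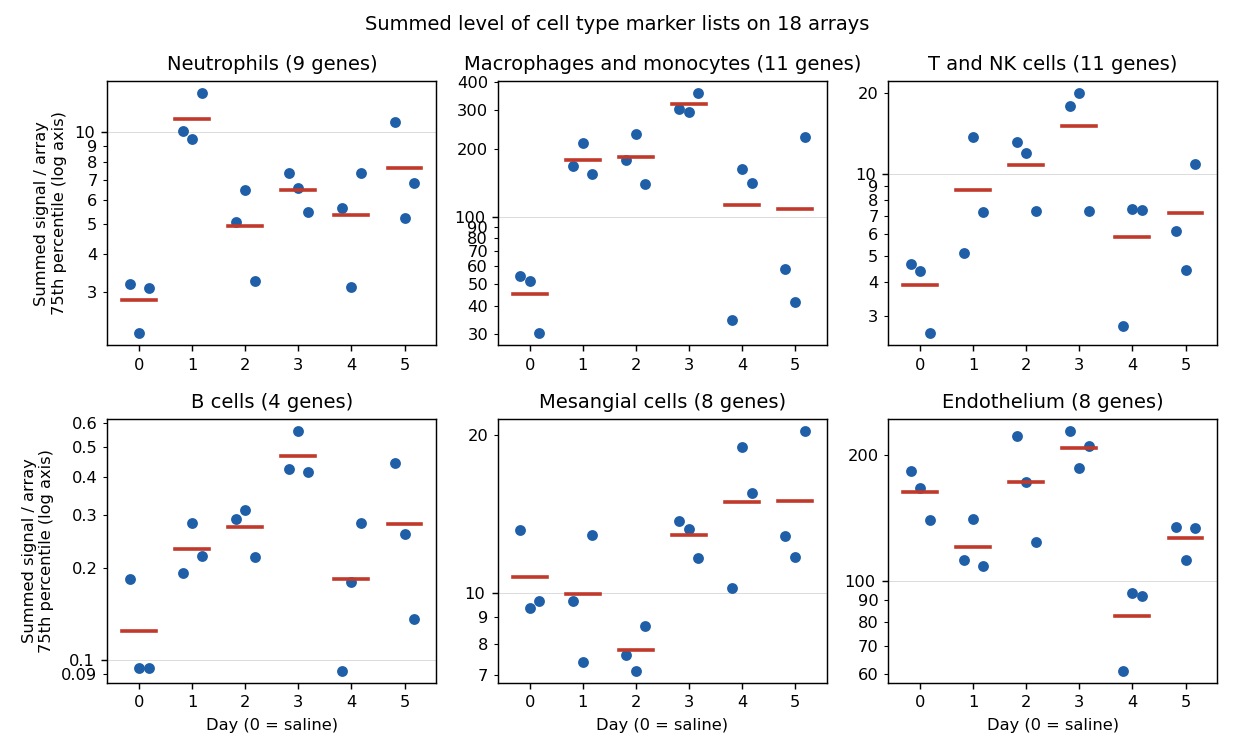
Summed level of 6 lists of cell type markers (vertical log axis, in multiples of the array's 75th percentile) by day, with 1 point per array and a red bar for the mean of the 3 arrays of a day. Macrophage and T and NK cell markers are highest on day 3, neutrophil markers on day 1, and day 4 replicate 1, the leftmost point of day 4, is low for macrophages and for T and NK cells.

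Genes known to respond to interferon gamma were counted beside these ligands. Of 13 tested from a list of 15, 3 rose on day 1, 4 on day 2, 7 on day 3, 3 on day 4 and 2 on day 5, while 1 fell on each of days 1 to 4 and 2 on day 5. The background of 19.2%, 20.8%, 21.8%, 25.6% and 20.9% higher is near these counts on days 1, 4 and 5. The median change of the list was 0.36, 0.67, 1.00, 0.01 and 0.14 on days 1 to 5. On day 3 Gbp2, an interferon-induced GTPase, rose by 2.39 (SE 0.39, adjusted p = 0.00065). The immunoproteasome subunits Psmb8 and Psmb9 rose by 2.16 and 1.83 on that day (adjusted p = 0.0033 and 0.0032). Socs1, an inhibitor of the same signal, fell on all 5 days, with a fitted change of -1.70 on day 2 (SE 0.36, adjusted p = 0.0025), and 1 array on each of days 1, 2 and 3 was not well above background. Ifng itself was well above background on 1 of 18 arrays and was not tested.

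A list of 13 genes of NF-kappaB signalling and early inflammation was counted in the same way, since the promoters of Cxcl1 and Cxcl2 are textbook targets of that factor. Of 9 tested, 6 rose on days 1, 2 and 3, 5 on day 4 and 4 on day 5, with 1 lower, on day 4. The background was 19.2%, 20.8%, 21.8%, 25.6% and 20.9% higher on days 1 to 5, and 26.7% lower on day 4. Il1b, the cytokine interleukin 1 beta, rose on every day, by 3.32 on day 1 (SE 0.33, adjusted p = 0.00017). Nfkbie, an inhibitor of the factor, rose by 1.17 (adjusted p = 0.0018) and Birc3, an inhibitor of apoptosis, by 1.12 (adjusted p = 0.0048) on day 1. Nfkb1, a subunit, rose by 1.11 on day 3 (adjusted p = 0.0009). Tnf stayed at background on all 18 arrays.

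Cxcl13, the B cell attractant, fell on day 1 and rose on day 4. Its level was 0.10, 0.33 and -0.02 on the controls, -2.35, -1.52 and -1.92 on day 1, -0.61, -0.91 and 0.26 on day 2 and 0.59, -0.47 and -0.50 on day 3. It was 0.92, 4.46 and 2.94 on day 4 and 1.52, 1.33 and 2.12 on day 5. Every array of day 1 was below every other array, and every array of days 4 and 5 was above every array of days 0 to 3. The fall on day 1 was 4.19-fold, a log2 change of -2.07 (SE 0.63, adjusted p = 0.019). The rise on day 4 was 6.23-fold, a log2 change of 2.64 (adjusted p = 0.0031). On day 5 the change was 1.52 and did not pass the test (adjusted p = 0.06). On days 2 and 3 the changes were -0.55 and -0.26 (adjusted p = 0.48 and 0.75).

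Between later days, Cxcl13 on day 5 was 12.1-fold above day 1, a log2 difference of 3.59 (adjusted p = 0.043), against 0.121% of all genes called in that comparison. It was the only one of the 9 genes called between later days. At an unadjusted p under 0.05, 3 genes differed between days 3 and 1, 3 between days 5 and 3, 2 between days 5 and 1 and 3 between days 4 and 2, against 13.7%, 13.2%, 8.91% and 13.9% of all genes. Between days 4 and 2, which share a scan day, the difference was 3.19 (adjusted p = 0.071), where 0.0992% of all genes were called. Between days 3 and 1 it was 1.80 (adjusted p = 0.23) and between days 5 and 3 it was 1.79 (adjusted p = 0.25), with 0.00431% and 0.00863% of all genes called. The differences had the same sign within a slide: 1.78 for days 3 and 1 on slide 2, 2.16 for days 5 and 3 on slide 3 and 1.34 for days 4 and 2 on slide 4. Day 1 replicate 1 was 2.49 below the controls on slide 1, a difference of -2.49.

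The 3 arrays of day 4 differ widely for Cxcl13 (SD 1.78), and its change from day 0 was 3.57 without replicate 1 and 1.80 without replicate 2, called in both. Without replicate 1 the difference between days 4 and 2 was 4.12 (adjusted p = 0.0092). The fall on day 1 was not called without control replicate 4 (-1.97, adjusted p = 0.071) or without day 1 replicate 1 (-1.86, adjusted p = 0.069). The difference between days 5 and 1 lost its call in 14 of the 18 fits that left out 1 array, between 3.36 and 3.80 in size with adjusted p from 0.052 to 0.14. It kept the call without day 2 replicate 4, day 3 replicate 4, day 4 replicate 1 or day 4 replicate 2.

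B cell markers were near background. Of the 4 with a probe reported here, Blk stayed at background on all 18 arrays, and Cd79b alone was tested. The summed level of the 4 ranged from 0.0942 to 0.185 on the controls, 0.193 to 0.282 on day 1, 0.218 to 0.311 on day 2, 0.413 to 0.567 on day 3, 0.0921 to 0.282 on day 4 and 0.136 to 0.442 on day 5. It was highest on day 3 and not on day 4. Cd79b, part of the B cell receptor, rose on day 3, with a fitted change of 3.38 (SE 0.62, adjusted p = 0.00098), or 4.11 and 2.60 without control replicate 2 or 4. Only 1 of 3 controls measured it, so the size is uncertain. It passed the filter only through days 1, 2, 3 and 5, where it was high, so the call is no independent support. Cxcr5, the receptor of Cxcl13, was not well above background on any of the 18 arrays.

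Cxcl12, or stromal cell-derived factor 1, was lowest on day 1 and highest on day 4. Its level was 3.49, 2.44 and 3.08 on the controls, 2.33, 2.49 and 1.72 on day 1 and 2.12, 2.60 and 2.68 on day 2. It was 3.29, 2.89 and 2.32 on day 3, 3.56, 3.89 and 3.17 on day 4 and 3.19, 3.54 and 3.05 on day 5. Day 1 fell by 0.82 on the log2 scale (SE 0.31, adjusted p = 0.048), although its replicate 4 lay above control replicate 4. The changes on days 2 to 5 were -0.54, -0.17, 0.54 and 0.26 (adjusted p from 0.16 to 0.68). Days 4 and 5 did not overlap day 1, and the differences were 1.08 between days 5 and 1 (adjusted p = 0.24) and 1.07 between days 4 and 2 (adjusted p = 0.18). A second probe of the gene changed by -0.82 (SE 0.26) on day 1 and 0.21 on day 4. Across the 18 arrays the levels of Cxcl12 and Cxcl13 had a Pearson correlation of 0.77.

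The day 1 call of Cxcl12 was lost without any 1 of 12 arrays, namely control replicates 2 and 5, all 3 of day 1, day 2 replicates 3 and 4, day 3 replicate 3, day 4 replicate 1 and all 3 of day 5. The change then lay between -0.98 and -0.58, with adjusted p from 0.051 to 0.17. Several mesangial and endothelial genes were lower on the same day, when 20.7% of all genes were lower. Of 8 mesangial markers tested, 6 fell on day 1, among them Itga8, an integrin of mesangial cells, with a fitted change of -3.66 (SE 0.48, adjusted p = 0.00087) and 2 of 3 arrays of day 1 well above background. Of 8 endothelial markers 4 fell on day 1 and 5 on day 4, where 26.7% of all genes were lower. Ehd3, a glomerular endothelial gene, fell by 2.81 on day 4 (adjusted p = 0.00021), or by 2.22 without control replicate 4. The summed level of the mesangial markers ranged from 9.40 to 13.2 on the controls, 7.41 to 12.9 on day 1, 7.13 to 8.67 on day 2, 11.7 to 13.8 on day 3, 10.2 to 19.0 on day 4 and 11.7 to 20.4 on day 5. The part of these cells in the level of Cxcl12 or Cxcl13 was not tested.

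**Figure D3:**
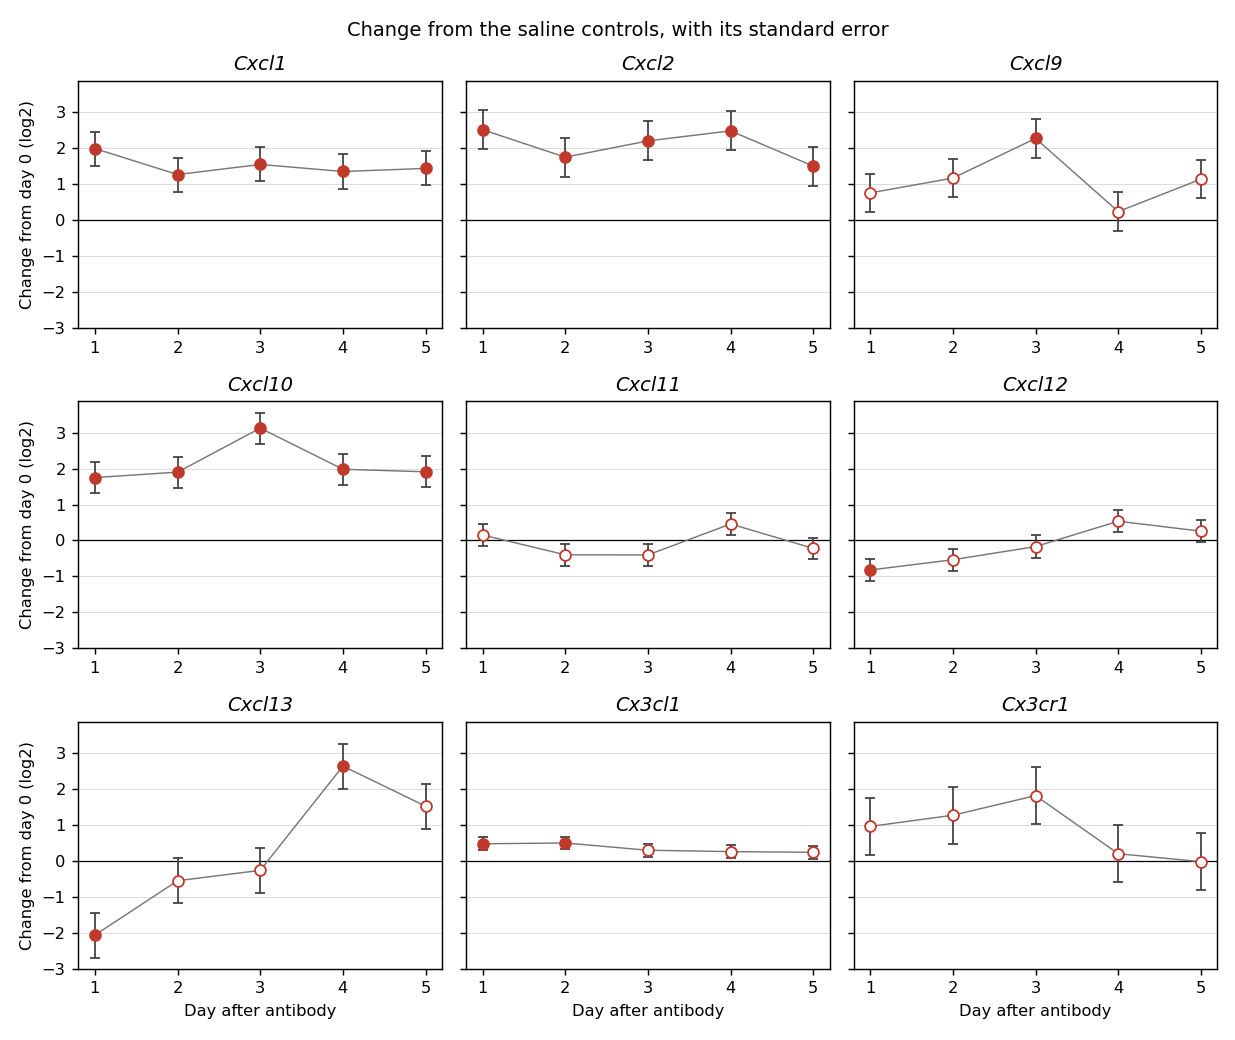
Change of each chemokine gene from the saline controls (vertical axis, log2, 1 scale for all panels) by day after the antibody, with bars for the standard error of the fit; filled points passed the test (limma, adjusted p under 0.05). Cxcl10 peaks at 3.13 on day 3, Cxcl13 runs from -2.07 on day 1 to 2.64 on day 4, and Cx3cl1 stays within 0.50; the points of Cxcl2 are fitted values against controls below background.

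Cx3cl1, the membrane-bound ligand, moved little. Its level was 4.20, 3.73 and 4.25 on the controls, 4.57, 4.86 and 4.18 on day 1 and 4.46, 4.60 and 4.62 on day 2. It was 4.40, 4.36 and 4.31 on day 3, 4.48, 4.25 and 4.23 on day 4 and 4.37, 4.31 and 4.22 on day 5. Control replicate 4 was the lowest array of all 18, and the highest control overlapped days 1, 4 and 5. Cx3cl1 rose by 0.48 on day 1 and by 0.50 on day 2 (SE 0.18, adjusted p = 0.043 and 0.031), and the changes on days 3 to 5 were 0.30, 0.26 and 0.24 (adjusted p from 0.18 to 0.28). The second probe of the gene did not follow the first, with changes of -0.02, -0.18, -0.46, -0.65 and -0.44 on days 1 to 5 (SE 0.23). Scaled to 12 reference genes, the first probe changed by -0.10 on day 1 and by -0.49 on day 4, the latter called (adjusted p = 0.004).

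Without control replicate 4 the changes of Cx3cl1 were 0.31 and 0.33 on days 1 and 2 (adjusted p = 0.18 and 0.13). The day 1 call was also lost without day 1 replicate 1 or 4 (0.46 and 0.32), or without day 2 replicate 3 or 4, day 3 replicate 2 or 3, day 4 replicate 2 or 3, or day 5 replicate 2 or 4, with adjusted p from 0.051 to 0.2. The day 2 call was lost without day 2 replicate 3 or 4 (0.48 and 0.47, adjusted p = 0.085 for each).

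Cx3cr1, the receptor, was dim and did not pass the test on any day. Its level was -3.80, -2.99 and -5.75 on the controls, -3.01, -2.69 and -3.96 on day 1, -2.44, -2.64 and -3.65 on day 2 and -1.97, -2.46 and -2.67 on day 3. It was -5.45, -3.20 and -3.29 on day 4 and -4.63, -5.48 and -2.50 on day 5. Control replicate 5, day 4 replicate 1 and day 5 replicates 2 and 4 were not well above background, and the order of their values carries no meaning. All 3 arrays of day 3 were above every control, and the change there was 1.82 (SE 0.80, adjusted p = 0.072). The changes on days 1, 2, 4 and 5 were 0.96, 1.27, 0.20 and -0.02 (adjusted p from 0.2 to 0.98). The day 3 change passed the test without control replicate 4 (2.41, adjusted p = 0.044), and its unchanged value passed without day 5 replicate 5 (adjusted p = 0.041). Cx3cr1 passed the filter only through days 1, 2 and 3, where its mean was highest. Those 2 passes are thus no independent support.

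Within days 4 and 5 the arrays at background for Cx3cr1 were those with the lowest summed macrophage markers. These arrays, day 4 replicate 1 and day 5 replicates 2 and 4, had summed macrophage marker levels of 34.3, 58.0 and 41.5, against 164, 141 and 227 on the other 3 arrays of those days. On day 3 the order differed, since replicate 4 was lowest for Cx3cr1 and highest for the markers, at 357. On day 3 Tyrobp, an adaptor of myeloid receptors, rose by 3.58 (SE 0.55, adjusted p = 0.00057), and Adgre1, the macrophage protein F4/80, by 3.43 (adjusted p = 0.00058). The part of macrophage number in the level of Cx3cr1 was not tested.

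The receptors of the CXC ligands differed from each other. Of the 8 receptor genes listed, Ackr1 had no probe by name, Cxcr1 and Cxcr5 were not well above background on any array and Cxcr2 on 1, and 4 were tested. Of these, 1 rose on day 1, 1 on day 2, 2 on day 3, 2 on day 4 and 1 on day 5, and none fell. On days 1, 2 and 5 this is near the background of 19.2%, 20.8% and 20.9% of all genes higher. The background was 21.8% on day 3 and 25.6% on day 4. Cxcr4, the receptor of Cxcl12, rose on every day. Its level was -1.97, -3.22 and -3.62 on the controls, -0.88, 0.02 and -1.13 on day 1 and 0.57, 0.92 and 0.39 on day 3. Only day 4 replicate 1, at -2.40, overlapped the controls. The log2 changes on days 1 to 5 were 2.27, 2.83, 3.56, 1.52 and 2.02 (SE 0.53, adjusted p = 0.0063, 0.0014, 0.00054, 0.026 and 0.0081). The day 4 call was lost without control replicate 4 or 5 (1.38 and 1.18, adjusted p = 0.089 and 0.11), or without day 4 replicate 2 or 3 (1.03 and 1.53, adjusted p = 0.13 and 0.058).

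Cxcr3, the receptor of Cxcl9, Cxcl10 and Cxcl11, was well above background only on the 3 arrays of day 3 and on day 5 replicate 5. It passed the filter through day 3, the day on which it was high. It was 2.03-fold higher on day 3 than the controls when these were raised to the floor used for Cxcl2. The fit's call on that day (adjusted p = 0.0043) follows from the filter and supports nothing. With normexp background correction the day 3 change was -0.015. Ackr3, which scavenges Cxcl11 and Cxcl12, rose by 0.68 (SE 0.19, adjusted p = 0.009) on day 4, and changed by -0.065 there when scaled to 12 reference genes. Cxcr6, the receptor of Cxcl16, did not pass the test on any day, with changes from 0.06 to 1.06 (SE 0.74).

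**Figure D4:**
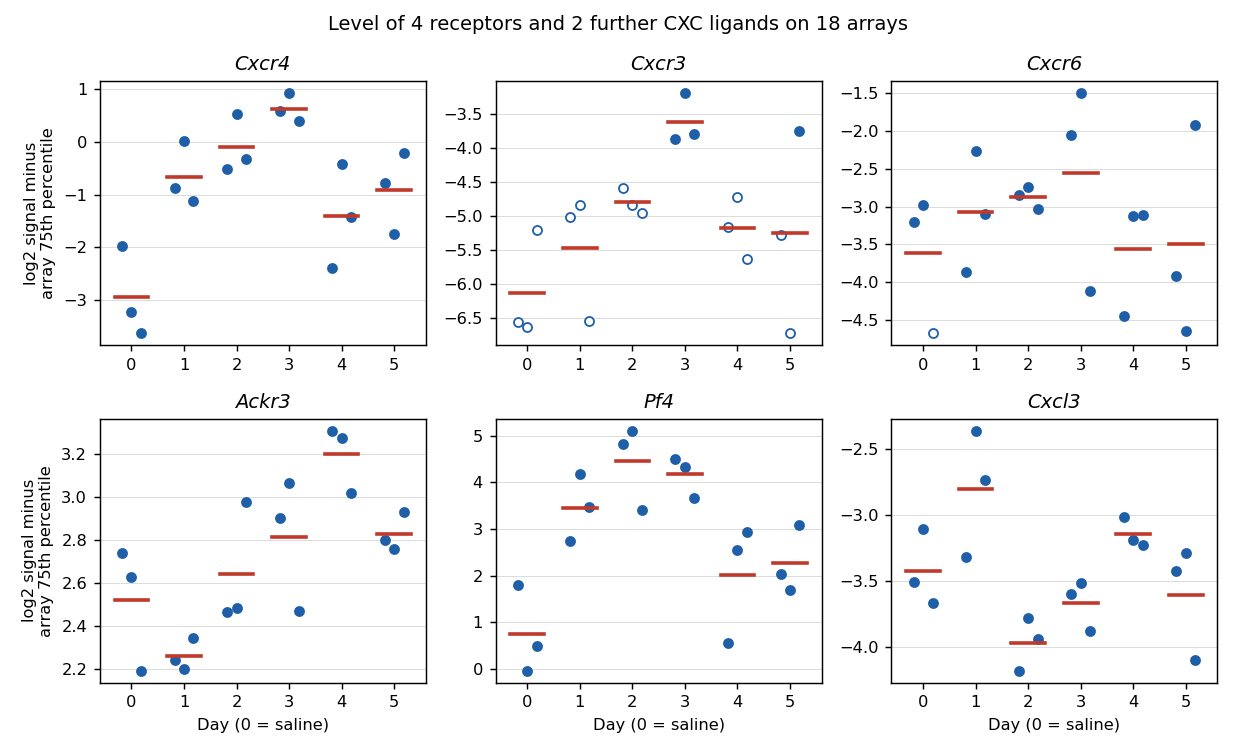
Level of 4 chemokine receptors and of the ligands Pf4 and Cxcl3, as log2 signal minus the array's 75th percentile (vertical axis, own scale per panel), by day; points are arrays, open where not well above background, and red bars are means of 3 arrays. Cxcr4 reaches 0.39 to 0.92 on day 3 from -3.62 to -1.97 on the controls, and Cxcr3 is well above background on 4 arrays only.

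Of 6 other CXC ligands listed, 4 were tested, and Cxcl6 and Cxcl14 were well above background on 2 and 3 of 18 arrays. Pf4, platelet factor 4, was the only one called, on days 1, 2 and 3. Its level was 1.81, -0.04 and 0.49 on the controls, 2.74, 4.18 and 3.47 on day 1, 4.83, 5.11 and 3.42 on day 2 and 4.51, 4.34 and 3.67 on day 3. It was 0.54, 2.55 and 2.94 on day 4 and 2.04, 1.69 and 3.09 on day 5. No array of days 1 to 3 overlapped the controls. The rise was 2.71, 3.70 and 3.42 on the log2 scale (SE 0.65, adjusted p = 0.0069, 0.0011 and 0.0011). Ppbp, another chemokine of platelet granules, changed by 0.37, 1.31, 0.61, -0.28 and -0.81 on days 1 to 5 (SE 0.71, adjusted p from 0.14 to 0.76). Cxcl3, a close relative of Cxcl1 and Cxcl2, changed by 0.62 on day 1 and -0.54 on day 2 (SE 0.25, adjusted p = 0.06 and 0.09). Cxcl17 changed by -0.54 to -0.26 (adjusted p from 0.053 to 0.34). The summed level of 4 platelet markers ranged from 0.891 to 1.23 on the controls, 1.78 to 2.90 on day 1, 1.95 to 3.85 on day 2 and 1.62 to 2.73 on day 3, and Treml1, a receptor of platelet granules, rose by 3.12 (SE 0.53, adjusted p = 0.00094) on day 2. On days 4 and 5 the summed level ranged from 0.876 to 1.30 and 1.13 to 1.83. Of 3 platelet markers tested, Treml1 and Gp9 rose on days 1, 2 and 3, none rose on days 4 and 5, and Itgb3, an integrin that endothelium also carries, fell on all 5 days. Itgb3 was well above background on 4 arrays and passed the filter only through the controls, where it was high. Its falls are thus no independent support. Of all genes, 19.2%, 20.8% and 21.8% were higher on days 1, 2 and 3. The part of platelets in the level of Pf4 was not tested.

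Proteases cut or shed several of these ligands. Of the 6 listed and tested, 1 rose and 1 fell on day 1, and 2 rose and 1 fell on day 2. Without any fall, 3 rose on day 3, 2 on day 4 and none on day 5. Of all genes, 19.2%, 20.8%, 21.8%, 25.6% and 20.9% were higher on days 1 to 5. The share lower was 20.7% on day 1 and 25.1% on day 2. The counts of days 1, 2 and 4 are near this background, and that of day 5 is below it. Mmp12, the macrophage elastase, rose on day 3, with a fitted change of 5.72 (SE 1.00, adjusted p = 0.0008) against controls of which 1 of 3 measured it. The change was 6.56 without control replicate 2 and 4.77 without control replicate 5. The gene passed the filter only through days after the antibody, so this call is no independent support. Adam17, a sheddase of Cx3cl1, rose by 1.35 on day 3 (SE 0.26, adjusted p = 0.0012). Mmp2, which can cleave Cxcl12, rose by 1.95 on day 3 (adjusted p = 0.014), but not when control replicate 5 (1.69) or day 3 replicate 2 (1.77) was left out (adjusted p = 0.052 for each). Mmp9 fell by 1.79 on day 1 (SE 0.58, adjusted p = 0.026), a call that was lost without control replicate 2 or 4 (-1.45 and -1.99) or day 1 replicate 4 or 5 (-1.50 and -1.63), with adjusted p from 0.053 to 0.1.

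For each chemokine the 3 genes most like it in level across the 18 arrays were named by Pearson correlation. For Cxcl10 they were Rnf114 (0.95), Eif2ak2 (0.94) and Lgals3bp (0.91), and for Cxcl9 they were Psmb9 (0.92), Gzmb (0.91) and Edn1 (0.89). For Cxcl2 they were Nfkbiz (0.91), Tnfrsf12a (0.84) and Flrt3 (0.83), and for Cxcl1 they were Prmt3 (0.85), Arf1 and Hmgcs1 (0.82 each). Cxcl13 was most like Angpt2 (0.93), Hopx (0.91) and Agtr1b (0.90), and Cxcl12 most like Anxa10 (0.86), Gdf11 (0.85) and Kctd11 (0.84). Cx3cr1 was most like Fli1 (0.96), Lcp1 (0.92) and Dok2 (0.91), Cx3cl1 most like Ubald2 (0.86), Sertad2 (0.85) and Gpd1l1 (0.85), and Cxcl11 most like Dgkg (0.82), Epb41l5 (0.80) and Fam20c (0.79). Only the 12272 of 23177 genes and transcripts tested that have a current symbol were searched. The arrays share days, slides and the scaling, and the lists were picked as the highest of those searched, so these values are descriptions.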

How the data were processed

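The authors scanned each array once in the Cy3 channel. Per the file headers, Feature Extraction 10.7.3.1 made the processed intensity from the mean spot intensity by background subtraction and detrending, with no scaling between arrays. The authors also deposited a table of log2 values, and how it was made is not given in the sources used here. It was used as an alternative only among days 0, 2 and 4 or 1, 3 and 5.

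The log2 processed intensity was used after subtracting each array's own 75th percentile of the non-control probes, without outlier spots (80 to 142 per array). A probe was kept if well above background on all 3 arrays of at least 1 day, 27826 of 41012 probes, and the brightest probe on average represented a gene. Names were updated through RefSeq accessions or symbols (21791 probes matched). All 18 arrays and 6 groups were fitted with limma 3.58.1 in R 4.3.3 (lmFit, eBayes), with adjusted p by Benjamini-Hochberg over all 23177 genes and a threshold of 0.05. Tables and figures used Python 3.11.15 with pandas 2.3.3 and matplotlib 3.10.9. The fit was tested on simulated data.

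Members and lists were chosen with earlier results of these data known. The genes named were all members, all listed receptors and other CXC ligands, up to 4 genes of each other list by largest mean change, and the 3 most correlated genes per member. Blk, Cd163, Ncr1, Csf3r, Elane, Mmp8, Tnf and Ifng were named after their values were seen. Alternatives covered scaling, background, filter, probes, slide and left-out arrays. One listed marker is not reported here. No promoter or protein sequences were used here.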

Additional observations from a re-analysis of the deposited data

Results flagged for a closer look

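The change of Cxcl13 from the controls had opposite signs on day 1 (-2.07) and day 5 (1.52, adjusted p = 0.06, not called). The difference between these days was 3.59 on the log2 scale (limma, adjusted p = 0.043), with all 3 arrays of day 5 above all 3 of day 1. The call was lost in 22 of 30 alternatives, among them 14 of the 18 fits that left out 1 array, while the difference kept its sign and lay between 2.07 and 3.94. No group had more than 3 arrays, so no array was tested as an outlier within its day.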

How the results depend on the processing

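The number of chemokine genes called depends on the processing, and the cause was not tested unless named. With normexp background correction, plain or with arrays scaled first (chosen after seeing the data), 0, 1, 1, 2 and 0 were called on days 1 to 5, 0 between days 5 and 1, and 2 over all days; of all 23177 genes plain normexp called 29, 1485, 1543, 2606 and 56 on days 1 to 5, 0 between days 5 and 1 and 855 over all days. With arrays scaled first, 39, 1124, 1295, 1822 and 58 of all genes were called on days 1 to 5, and 604 over all days. With slide as a fixed block, 0 were called on days 1, 3 and 5 and between days 5 and 1. It called 1 between days 4 and 2. Of all genes the slide block called 0, 1 and 1 on days 1, 3 and 5. Between days 5 and 1 it called 4 of all genes, and between days 4 and 2 it called 332. It could not be fitted for days 2 and 4 against day 0 or over all days. Fitting only the days compared gave 3 on day 1 and 0 between days 5 and 1, from fewer arrays, with 3304 and 1 of all genes called. No filter gave 2 on day 2 and 0 between days 5 and 1, with 10689 and 20 of all genes in that fit called. Array-median scaling gave 7 on day 4 and 6 on day 5. It called 13681 and 12640 of all genes on these days, of which 71.2% and 75.8% were higher. Scaling to 12 reference genes gave 1 on day 5, 0 between days 5 and 1 and 2 between days 4 and 2. Of all genes it called 10702, 24 and 541 in these comparisons. Quantile normalization gave 0 between days 5 and 1, with 9 of all genes called. Leaving out 1 array gave 3 to 6, 1 to 5, 3 to 5, 3 to 4 and 1 to 5 on days 1 to 5, 0 to 1 between days 5 and 1 and between days 4 and 2, and 4 to 6 over all days. On days 1 to 5 those fits called 4614 to 9640, 7135 to 10885, 8370 to 11223, 9314 to 12459 and 6513 to 10564 of all genes.

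Changes from day 0 turned as follows. Normexp gave -0.29, -0.013 and -0.060 for Cxcl2 on days 2 to 4, -0.25 for Cxcl9 on day 4, -0.085 for Cxcl12 and -0.14 for Cx3cl1 on day 5, -0.16, -0.46 and 0.29 for Cx3cr1 on days 2, 4 and 5, and -0.015 for Cxcr3 on day 3. With arrays scaled first it gave -0.18 for Cxcl12 on day 5, -0.066 and -0.25 for Cx3cl1 on days 1 and 5, and -0.0486 and 0.50 for Cx3cr1 on days 4 and 5. Reference genes gave -0.51 for Cxcl9 on day 4, -0.42 and -0.29 for Cxcl11 on days 1 and 4, -0.21 and -0.27 for Cxcl12 on days 4 and 5, -0.10, -0.17, -0.49 and -0.29 for Cx3cl1 on days 1, 3, 4 and 5, -0.55 for Cx3cr1 and -0.065 for Ackr3 on day 4. The array median gave 0.20 for Cxcl11 on day 5, 0.22 for Cxcl12 and 0.13 for Cxcl13 on day 3, and 0.40 for Cx3cr1 on day 5. Quantile normalization gave -0.091 for Cxcl12 on day 5, -0.0402, -0.17 and -0.17 for Cx3cl1 on days 3 to 5 and 0.54 for Cx3cr1 on day 5. The mean of the probes gave -0.0798, -0.20 and -0.10 for Cx3cl1 on days 3 to 5, and the deposited table -0.18 on day 4. The slide block gave 0.31 for Cxcl12 on day 3 and 0.75 for Cx3cr1 on day 5. Leaving out 1 array gave -0.15 to 0.95 for Cxcl9 on day 4, -0.46 to 0.085 and -0.027 to 0.50 for Cxcl12 on days 3 and 5, and -0.58 to 0.94 and -0.88 to 0.62 for Cx3cr1 on days 4 and 5.

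Whether the replicate numbers of the titles pair the arrays is not stated in the labels, and the main fit did not pair them. Deviations of same-numbered arrays correlated above 0.1 in 8 of 27 pairs, from -0.38 to 0.28. Differently numbered arrays were not compared, so these values cannot settle it. With a replicate block, 3 genes were called on day 1, 1 on day 2, 3 over all days, 0 between days 5 and 1 and 1 between days 4 and 2, and Cxcl11 changed by -0.021 on day 1. Of all genes the replicate block called 6368, 7935, 6867, 1 and 8 in these comparisons. Slide as a random block (correlation -0.0291) changed no call of a chemokine gene.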
